A study of Mus musculus with 22 samples.

Results

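The collagen genes described here are the 42 genes on the array table whose annotated symbol has the form Col, a number, a, a number (Col1a1, Col6a5 and so on), out of 19337 named genes. They were grouped by known structure into 11 fibrillar chains, 6 basement membrane chains (all of type IV) and 25 other chains. The last group holds 8 fibril-associated chains (FACIT collagens), 6 beaded-filament chains (type VI), 4 transmembrane chains, 3 short-chain network chains (types VIII and X), 2 multiplexins (Col15a1 and Col18a1) and 2 remaining chains. Col7a1 and Col12a1 were not analysed here.

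Collagens are triple helices of 3 chains, and each gene encodes 1 chain. Fibrillar collagens form the tension-bearing fibres of connective tissue, type IV forms the sheet under endothelium and around each adipocyte, and type VI forms fine beaded filaments close to cells. In white fat this matrix is made mainly by stromal cells, with part of it from adipocytes and vessel cells, and it is remodelled as fat cells enlarge during obesity.

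The series measured RNA from white fat of male C57BL/6J mice (from Envigo) whose bone marrow had been replaced. After 6 weeks of reconstitution the mice were fed a diet that took 60% of its calories from fat for another 14 weeks. The fat was then taken from the epididymal depot (epiWAT) or the inguinal subcutaneous depot (ingWAT), and 100 ng of total RNA per sample was labelled for an Affymetrix array. Donor marrow came from wild-type mice (WT), was Gipr-/- (without the receptor for GIP, a gut hormone) or was Gipr-/-S100a9-/-. The last, named double-knockout marrow below, also lacks a calcium-binding protein abundant in neutrophils and monocytes. Mice given WT or Gipr-/- marrow were WT recipients, so their own fat cells, stromal cells and vessels kept both genes. The sources used here do not give the recipient of the double-knockout marrow. All groups share the transplant and the diet, and S100a9-/- marrow alone was not analysed here. The epiWAT groups had 4 arrays each, and the ingWAT groups had 4 arrays for WT, 3 for Gipr-/- and 3 for double-knockout marrow.

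Values are the deposited values, taken as log2, so that a difference of 1 is a 2-fold change. Over all features they ran from 1.92 to 19.9, with array medians between 6.11 and 6.54, and correlations between arrays of the same group were 0.907 to 0.984. Whether the arrays of a group come from different mice is not in the labels. The p-values therefore reflect the spread among these samples only, which may be technical. In pieces of whole tissue, fewer cells of a type and less RNA per cell cannot be told apart. Some arrays carried RNA of neighbouring tissue. The mean level of 5 skeletal muscle genes, relative to their mean over all arrays, ran from -2.45 to 9.54 in ingWAT and from -3.43 to -1.98 in epiWAT. Double-knockout epiWAT array 1 had an epididymis epithelium score of 8.79 and an adipocyte score of -1.73, whereas the other arrays had adipocyte scores between -0.46 and 0.48. Gipr-/- epiWAT array 1 had a testis germ cell score of 7.93 and an endothelial score of -1.53, and WT epiWAT arrays 1 and 2 had epididymis scores of 3.65 and 4.04. Double-knockout epiWAT arrays 2 and 3 had epididymis scores of 3.27 and 1.95. Germ cell scores were 2.51 and 3.37 in WT epiWAT arrays 1 and 2, and 2.49 and 1.82 in double-knockout epiWAT arrays 1 and 3.

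The clearest collagen pattern in these data was in type VI. Col6a5, Col6a6 and Col6a4 encode long alternative chains that can take the place of the Col6a3 chain in the trimer, and the 3 genes lie in a row on chromosome 9. The 150 bases before the start of each transcript are shown because these neighbours differed in opposite directions between depots. The sequences are RefSeq's for GRCm38.p6, 5′ to 3′ on the gene's strand, and capitals mark the letters GGGCGG or, on the opposite strand, CCGCCC.
Col6a5: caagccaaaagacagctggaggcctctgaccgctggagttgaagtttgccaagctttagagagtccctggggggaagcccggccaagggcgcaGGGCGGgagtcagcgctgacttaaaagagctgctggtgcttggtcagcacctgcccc
Col6a6: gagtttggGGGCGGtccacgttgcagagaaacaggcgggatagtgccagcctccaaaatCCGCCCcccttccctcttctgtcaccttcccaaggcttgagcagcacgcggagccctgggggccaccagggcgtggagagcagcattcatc
Col6a4: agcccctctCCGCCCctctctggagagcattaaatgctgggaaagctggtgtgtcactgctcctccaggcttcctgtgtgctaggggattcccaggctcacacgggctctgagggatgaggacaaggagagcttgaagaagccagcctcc
All are on the minus strand, at chr9:105960644-105960793 for Col6a5, chr9:105828086-105828235 for Col6a6 and chr9:106096692-106096841 for Col6a4. The motif began 57 bases before the start of Col6a5, 141 before that of Col6a4, and 142 and 91 before that of Col6a6. Over the 34 collagen genes with a RefSeq promoter window (37 windows, 250 bases upstream, both strands), GGGCGG was present in 56.8% against 32.7% of all 32851 windows. TATAAA was present in 13.5% against 12.4%, and CCAAT in 32.4% against 33.8%. These counts describe letters in the windows and were not tested.

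With WT marrow, Col6a5 was the collagen gene that differed most between depots. Its log2 values were 8.18, 8.74, 7.89 and 7.39 in epiWAT and 4.39, 3.70, 3.39 and 5.0 in ingWAT. The lowest epiWAT array was above the highest ingWAT array. The difference was -3.93 (SE 0.52, 95% interval -5.01 to -2.86), lower in ingWAT, with an adjusted p of 0.000789 (limma, Benjamini-Hochberg over 14502 genes). It passed the threshold in all 30 alternative settings that tested it, with a highest adjusted p of 0.00640. The WT ingWAT mean of 4.12 is below 4.40, the level under which a gene's mean over all arrays kept it out of the test. The files used here hold no detection calls, so the size of the difference is given on the log2 scale with no fold.

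The Col6a5 depot differences with the other marrows were smaller in size and were not called. In epiWAT of Gipr-/- chimeras it measured 6.73, 7.22, 5.50 and 7.34, and in ingWAT 4.15, 4.12 and 4.77, without overlap. That difference was -2.35 (SE 0.56, adjusted p = 0.0590) and missed the threshold. It passed under quantile normalization, with array weights, and without any of 4 epiWAT arrays, Gipr-/- array 3 and double-knockout arrays 1, 3 and 4. With double-knockout marrow the epiWAT values were 6.91, 5.80, 7.81 and 5.20 and the ingWAT values 5.27, 5.85 and 4.75, which overlap. The difference there was -1.14 (SE 0.56, adjusted p = 0.244). The test of whether the depot gap itself differed between double-knockout and WT marrow gave 2.79 (SE 0.76, 95% interval 1.21 to 4.38, adjusted p = 0.234) and did not pass over all genes.

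Within epiWAT, Col6a5 averaged 8.05 ± 0.57 with WT marrow (SD, n = 4), 6.70 ± 0.84 with Gipr-/- marrow (n = 4) and 6.43 ± 1.16 with double-knockout marrow (n = 4). All 4 Gipr-/- arrays lay below all 4 WT arrays, and the double-knockout arrays overlapped the WT arrays. The difference of Gipr-/- from WT was -1.35 (SE 0.57, 95% interval -2.60 to -0.11, adjusted p = 0.666), and that of double-knockout from WT was -1.62 (SE 0.57, adjusted p = 0.999). Within ingWAT the order of the means was the opposite, 4.12 ± 0.72 (n = 4), 4.35 ± 0.36 (n = 3) and 5.29 ± 0.55 (n = 3), with a difference of double-knockout from WT of 1.17 (adjusted p = 0.241). None of these 3 differences passed the test. In epiWAT, Gipr-/- array 3 and double-knockout array 4 were the lowest of their groups in Col6a5. They also had the lowest scores of their groups for mesothelium, the layer that covers this depot (-0.03 and 0.57). With WT marrow, array 4 was lowest in Col6a5 (score 1.68) and array 1 had the lowest score (0.63). The part of that layer in the Col6a5 values was not tested.

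Col6a6 was also lower in ingWAT. With double-knockout marrow it measured 5.09, 5.78, 6.67 and 6.25 in epiWAT and 3.99, 4.90 and 4.26 in ingWAT, without overlap. The difference of -1.56 (SE 0.38, 95% interval -2.35 to -0.78) had an adjusted p of 0.0260, with an ingWAT mean of 4.38 that is also near the filter level. With WT marrow the difference was -1.16 (SE 0.35, adjusted p = 0.0946), again without overlap, and with Gipr-/- marrow -0.94 (SE 0.38, adjusted p = 0.25).

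Col6a4 went the other way with double-knockout marrow. Its ingWAT values were 6.25, 5.34 and 5.72, all above the epiWAT values of 4.51, 4.64, 4.50 and 4.40. The difference was 1.26 (SE 0.28, 95% interval 0.67 to 1.85, adjusted p = 0.0191), higher in ingWAT, with an epiWAT mean of 4.51 near the filter level. The means of the other 5 groups lay between 4.44 and 4.78, against 5.77 ± 0.45 (SD, n = 3) in double-knockout ingWAT. Against Gipr-/- ingWAT (4.93, 4.81 and 4.61, no overlap) the difference was 0.99 with an adjusted p of 0.149, and against WT ingWAT it was 1.05 with an adjusted p of 0.206. Its change in the depot gap between double-knockout and Gipr-/- marrow was 1.19 (SE 0.40, adjusted p = 0.174).

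The core type VI chains had a mixed pattern. Col6a1, the first chain of every type VI trimer, measured 10.66, 12.13, 11.45 and 11.80 in double-knockout epiWAT and 9.96, 10.77 and 10.12 in double-knockout ingWAT. The lowest epiWAT array was below the highest ingWAT array, so the groups overlapped slightly. The difference of -1.23 (SE 0.32, 95% interval -1.89 to -0.56) had an adjusted p of 0.0344, a 2.34-fold lower signal in ingWAT. Col6a3, the usual partner of these chains, from whose end the fragment endotrophin is released, had higher ingWAT means with WT marrow (11.74 ± 0.25 against 10.67 ± 0.65, n = 4 each, without overlap) and with double-knockout marrow (11.61 ± 0.62, n = 3, against 10.28 ± 0.51, n = 4, without overlap). Neither difference passed, at 1.07 (SE 0.37, adjusted p = 0.148) and 1.33 (SE 0.40, adjusted p = 0.0685). With Gipr-/- marrow the Col6a3 values overlapped, at 11.50, 11.60 and 11.17 in ingWAT and 10.70, 10.45, 12.23 and 11.19 in epiWAT.

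The 3 depot calls with double-knockout marrow rest on few arrays. None of Col6a1, Col6a4 and Col6a6 passed without double-knockout ingWAT array 1 (adjusted p of 0.161, 0.119 and 0.131), without ingWAT array 3 (0.118, 0.0584 and 0.0886), without epiWAT array 3 (0.0779, 0.0503 and 0.0860), or when only the 2 groups compared were fitted (0.258, 0.183 and 0.221). Col6a1 also missed the threshold without double-knockout epiWAT array 2 (0.0810) or array 4 (0.0563), with centred arrays (0.0710) and under quantile normalization (0.0518), and Col6a6 with centred arrays (0.0506).

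**Figure D1:**
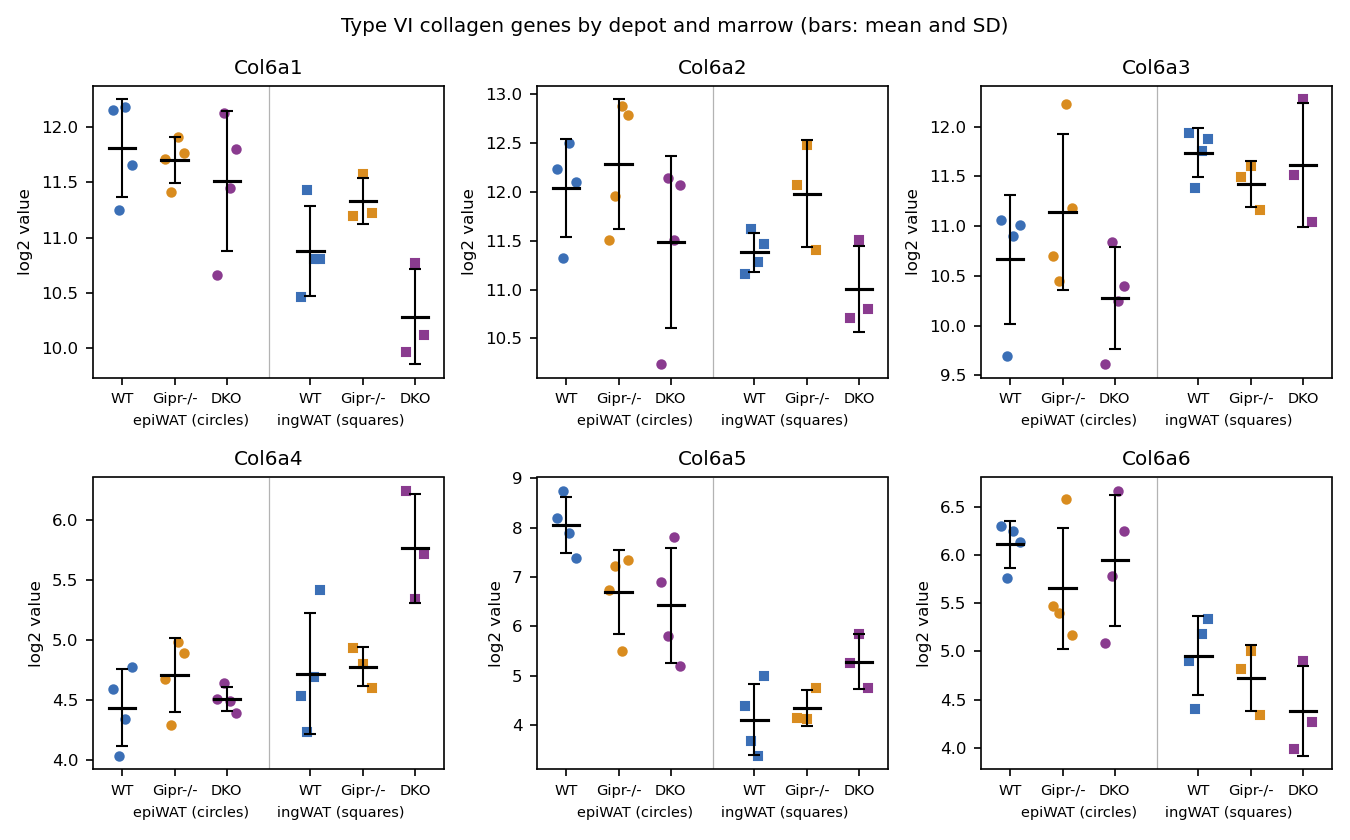
Log2 values of the 6 type VI collagen genes in each array (circles epiWAT, squares ingWAT, coloured by marrow), with bars for the mean and SD of each group. Col6a5 runs from a mean of 8.05 in WT epiWAT to 4.12 in WT ingWAT, and Col6a4 is highest in double-knockout ingWAT, with a mean of 5.77.

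Counted over all collagen genes, the comparison of depots gave few calls. With WT marrow 1 of 38 tested collagen genes passed (Col6a5, lower in ingWAT), against 1.97% of all genes tested, 0.945% in the lower direction. The arrays of the depots did not overlap for 5 of the 38, against 11.7% of all genes. The 3 higher in ingWAT were Col6a3, Col22a1 and Col27a1, against 4.38% of all genes in that direction. With Gipr-/- marrow 0 of 38 passed in limma, with 3 at an unadjusted p under 0.05, against 0.614% and 15.1% of all genes, and 5 did not overlap, against 16.8%. Of those, 4 were lower in ingWAT (Col4a1, Col6a5, Col6a6 and Col14a1), against 7.59% of all genes. With double-knockout marrow 3 of 38 passed, against 3.92% of all genes. Col6a4 was higher, against 1.71% of genes, and Col6a1 and Col6a6 were lower, against 2.21%. There, 11 of 38 did not overlap, against 15.5% of all genes, with 8 higher in ingWAT (against 6.57%) and 3 lower (against 8.95%).

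Outside type VI, no collagen gene passed the test between depots. Col14a1, a FACIT collagen that sits on fibril surfaces, was lower in ingWAT at 5.62 ± 0.57 against 6.83 ± 0.61 with WT marrow (n = 4 each, overlapping, difference -1.21, adjusted p = 0.0626). It passed when WT epiWAT array 1 was left out. Its differences with Gipr-/- and double-knockout marrow were -0.89 (adjusted p = 0.252) and -0.70, both without overlap. In double-knockout marrow, Col8a2, a network chain of vessel walls, had 8.52, 8.81 and 8.73 in ingWAT against 7.56 to 7.98 in epiWAT, a difference of 0.87 (adjusted p = 0.0529). Col9a2, a FACIT chain best known from cartilage, differed by 0.89 (adjusted p = 0.0746), and Col13a1, a transmembrane collagen of cell adhesion sites, by 0.99 (adjusted p = 0.113), each without overlap.

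Col17a1, a collagen of the hemidesmosomes that fix skin keratinocytes, had a wider spread within the ingWAT groups than any other collagen gene. It measured 7.97, 5.48, 4.87 and 3.84 in the WT arrays, 3.35, 4.20 and 6.00 in the Gipr-/- arrays, against 4.24, 6.26 and 5.94 in the double-knockout arrays, whereas every epiWAT array lay between 3.41 and 4.59. The skin and gland epithelium score of the same ingWAT arrays was 1.59, 2.25, -1.17 and -1.50, then -2.06, -1.97 and 0.28, then -1.55, 1.91 and -0.34. Within each ingWAT group the array lowest in Col17a1 also had the lowest skin score. The part of skin RNA in this spread was not tested.

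In the medians over all tested chains of a class, basement membrane chains were lower in ingWAT than in epiWAT and fibrillar chains slightly higher, without a single call in either class. With the lowest 50% of genes left out, which leaves fewer chains, the basement membrane median with Gipr-/- marrow turned to 0.27 and the fibrillar median with WT marrow was 0.024. With WT marrow all 6 type IV chains were lower in ingWAT (median difference -0.50, range -1.04 to -0.13), beside a median of -0.07 over all genes. With double-knockout marrow all 6 were lower too (median -0.23, range -1.20 to -0.06), and with Gipr-/- marrow 4 of 6 (median -0.60). Col4a2 turned to 0.02 under quantile normalization with WT marrow, and to 0.03 and 0.08 with double-knockout marrow when arrays were centred or quantile normalized, leaving 5 of 6 lower. For fibrillar chains, 7 of 10 were higher in ingWAT with WT marrow (median 0.40), 9 of 10 with Gipr-/- marrow (0.45) and 8 of 10 with double-knockout marrow (0.30). Leaving out 1 array gave fibrillar medians of 0.26 to 0.48, 0.24 to 0.61 and 0.050 to 0.46 in that order, the lowest without double-knockout ingWAT array 2. Centring the arrays moved the median of all genes by 0.15 in the Gipr-/- depot comparison, from 0.02 to 0.16, and the fibrillar median there to 0.59. Relative to all genes the fibrillar chains kept the same distance, since centring shifts every gene alike.

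**Figure D2:**
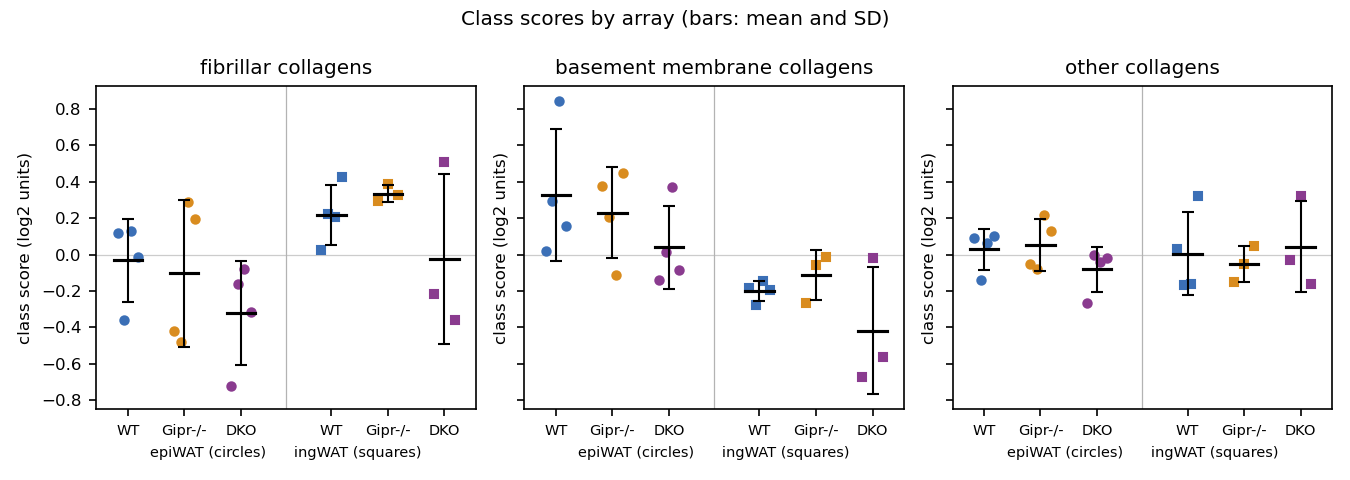
Class level in each array, the mean over the genes of a class of the log2 value minus that gene's mean over all 22 arrays, for fibrillar, basement membrane and other collagens (circles epiWAT, squares ingWAT, bars mean and SD). Basement membrane levels average 0.33 in WT epiWAT and -0.42 in double-knockout ingWAT, and double-knockout ingWAT array 2 is the highest of its group in every class.

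The class levels were otherwise close between marrow groups. The fibrillar level averaged -0.03 ± 0.23, -0.10 ± 0.40 and -0.32 ± 0.29 in epiWAT with WT, Gipr-/- and double-knockout marrow (SD, n = 4 each), and 0.22 ± 0.16 (n = 4), 0.33 ± 0.05 (n = 3) and -0.02 ± 0.47 (n = 3) in ingWAT. The basement membrane level averaged 0.33 ± 0.36, 0.23 ± 0.25 and 0.04 ± 0.23 in epiWAT, and -0.20 ± 0.05, -0.11 ± 0.14 and -0.42 ± 0.35 in ingWAT. The level of the other collagens stayed between -0.08 and 0.05 in all 6 groups. In both depots the double-knockout group had the lowest mean of the fibrillar and basement membrane classes, with ranges that overlapped those of the other groups.

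The marrow comparison with collagen calls was double-knockout against Gipr-/- in ingWAT. Of 39 tested collagen genes 2 passed, both lower with double-knockout marrow, against 3.48% of all genes tested and 2.65% in the lower direction. The groups of 3 arrays did not overlap for 10 of 39, against 22.3% of all genes: 6 were lower, against 13.9%, and 4 were higher, against 8.35%. The share of collagen genes called was thus near that of genes in general.

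The first was Col4a2, which with Col4a1 makes the common type IV trimer of basement membranes. These genes lie head to head, transcribed away from each other. Both transcripts start within the 30 bases at chr8:11312801-11312830, printed here because both chains are followed below. The sequence is RefSeq's for GRCm38.p6 on the plus strand. Capitals mark the 22 bases from the start of Col4a2 to that of Col4a1, where the transcripts overlap.
Col4a1 and Col4a2: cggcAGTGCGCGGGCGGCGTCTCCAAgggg
In ingWAT, Col4a2 measured 11.42, 11.92 and 11.87 in the Gipr-/- arrays, against 10.13, 10.92 and 10.61 in the double-knockout arrays. Every double-knockout array was below every Gipr-/- array, and also below every WT array (11.18, 11.08, 11.20 and 11.20). The difference from Gipr-/- was -1.18 (SE 0.25, 95% interval -1.73 to -0.63, adjusted p = 0.0284), a 2.27-fold lower signal. The difference from WT was -0.61 (adjusted p = 0.287), and Gipr-/- was 0.57 above WT (SE 0.24, adjusted p = 0.281).

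Col4a1 did not follow to the same extent. It measured 9.68, 9.85 and 10.21 in the Gipr-/- arrays, against 9.27, 10.15 and 9.61 in the double-knockout arrays, which overlap. In epiWAT, Col4a2 averaged 11.29 ± 0.49, 11.37 ± 0.46 and 10.61 ± 1.12 with WT, Gipr-/- and double-knockout marrow (n = 4 each), and none of those differences passed. The difference of double-knockout from Gipr-/- marrow was not shown to depend on the depot for Col4a2 (-0.42, adjusted p = 0.820). Col4a3, a chain of the kidney-type network, had lower ingWAT values with double-knockout than Gipr-/- marrow (5.54, 6.11 and 5.07 against 6.17, 7.05 and 6.39), a difference of -0.97 (adjusted p = 0.173). The remaining chains, Col4a4 to Col4a6, stayed between group means of 4.61 and 5.98 over the 6 groups.

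The second was Col5a1, the main chain of type V collagen, which nucleates and limits the width of type I fibrils. The 150 bases before its start, at chr2:27886275-27886424 on the plus strand (RefSeq, GRCm38.p6), are shown as those of the fibrillar chain that was called. Capitals mark GGGCGG, which began 73 bases before the start.
Col5a1: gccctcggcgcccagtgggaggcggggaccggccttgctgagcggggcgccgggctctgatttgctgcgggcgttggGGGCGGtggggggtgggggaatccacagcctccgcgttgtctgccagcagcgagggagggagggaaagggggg
Its ingWAT values were 8.63, 8.40 and 7.80 in the Gipr-/- arrays, against 6.46, 7.42 and 6.34 in the double-knockout arrays, without overlap. The WT values of 7.33, 7.77, 8.01 and 7.24 lay in between and overlapped both groups. The difference of double-knockout from Gipr-/- was -1.53 (SE 0.37, 95% interval -2.35 to -0.72, adjusted p = 0.0459), a 2.90-fold lower signal. Against WT, Gipr-/- stood at 0.69 (adjusted p = 0.380) and double-knockout at -0.84 (adjusted p = 0.317). These 3 comparisons share arrays and are not independent.

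Both calls are sensitive to single arrays. Col4a2 passed in 12 of 19 alternative settings and missed the threshold without Gipr-/- array 1 (adjusted p = 0.0563), 2 (0.128) or 3 (0.0691), or double-knockout array 1 (0.128) or 3 (0.0796). It also missed under quantile normalization (0.0596) and when all 22 arrays were fitted together (0.164). Col5a1 passed in 7 of 19. It missed without Gipr-/- array 1 (0.161) or 2 (0.173), double-knockout array 1 (0.177) or 3 (0.147), or any 1 of the 4 WT arrays (0.0633, 0.0628, 0.0507 and 0.0512). It also missed under quantile normalization (0.0513), with no filter (0.0555), without the trend (0.0506) and with all 22 arrays fitted together (0.156). Without double-knockout array 2, whose class levels were the highest of its group, 5 collagen genes passed: Col4a2, Col5a1, Col6a1, Col6a2 and Col15a1. That array also had the highest skeletal muscle score (7.07) and skin and gland epithelium score (1.91) of its group. The part of such tissue in its collagen values was not tested.

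Several further chains had lower means in double-knockout than Gipr-/- ingWAT without passing. Col6a1 measured 11.20, 11.58 and 11.23 against 9.96, 10.77 and 10.12, without overlap (difference -1.05, adjusted p = 0.0818). Col6a2, its partner in the type VI trimer, measured 12.07, 12.48 and 11.40 against 10.70, 11.51 and 10.80 (difference -0.98, adjusted p = 0.109). Col15a1, which links basement membranes to the fibrils beneath, measured 11.32, 10.85 and 10.77 against 9.25, 10.86 and 8.84 (difference -1.33, adjusted p = 0.141). In the last 2 genes a single double-knockout array, array 2, reached into the Gipr-/- range. Col5a2, the second type V chain, was at -0.89 (adjusted p = 0.162, without overlap), and Col23a1, a transmembrane collagen, at -0.72 (adjusted p = 0.294, without overlap).

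Type I and type III, the bulk fibrillar collagens, had no call. Col1a1, the main chain of type I, measured 11.70, 10.99 and 11.79 in the Gipr-/- arrays, against 10.49, 11.07 and 10.20 in the double-knockout arrays of ingWAT (difference -0.91, adjusted p = 0.156). All double-knockout arrays were below the WT arrays (11.48, 12.27, 11.68 and 11.29), a difference of -1.10 (SE 0.31, adjusted p = 0.171), a 2.14-fold lower signal. That difference passed when double-knockout array 2 was left out, as did that of Col15a1. Its partner chain Col1a2 had a mean of 11.33 ± 0.88 (n = 3) with double-knockout marrow, 11.66 ± 0.24 (n = 3) with Gipr-/- marrow and 11.26 ± 0.39 (n = 4) with WT marrow, with double-knockout array 2 at 12.34. Col3a1, the type III chain, averaged 15.46 ± 0.32 (n = 4), 15.01 ± 0.10 (n = 3) and 15.00 ± 0.53 (n = 3) with WT, Gipr-/- and double-knockout marrow. The Gipr-/- arrays all lay below the WT arrays (difference -0.45, SE 0.26, adjusted p = 0.468).

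**Figure D3:**
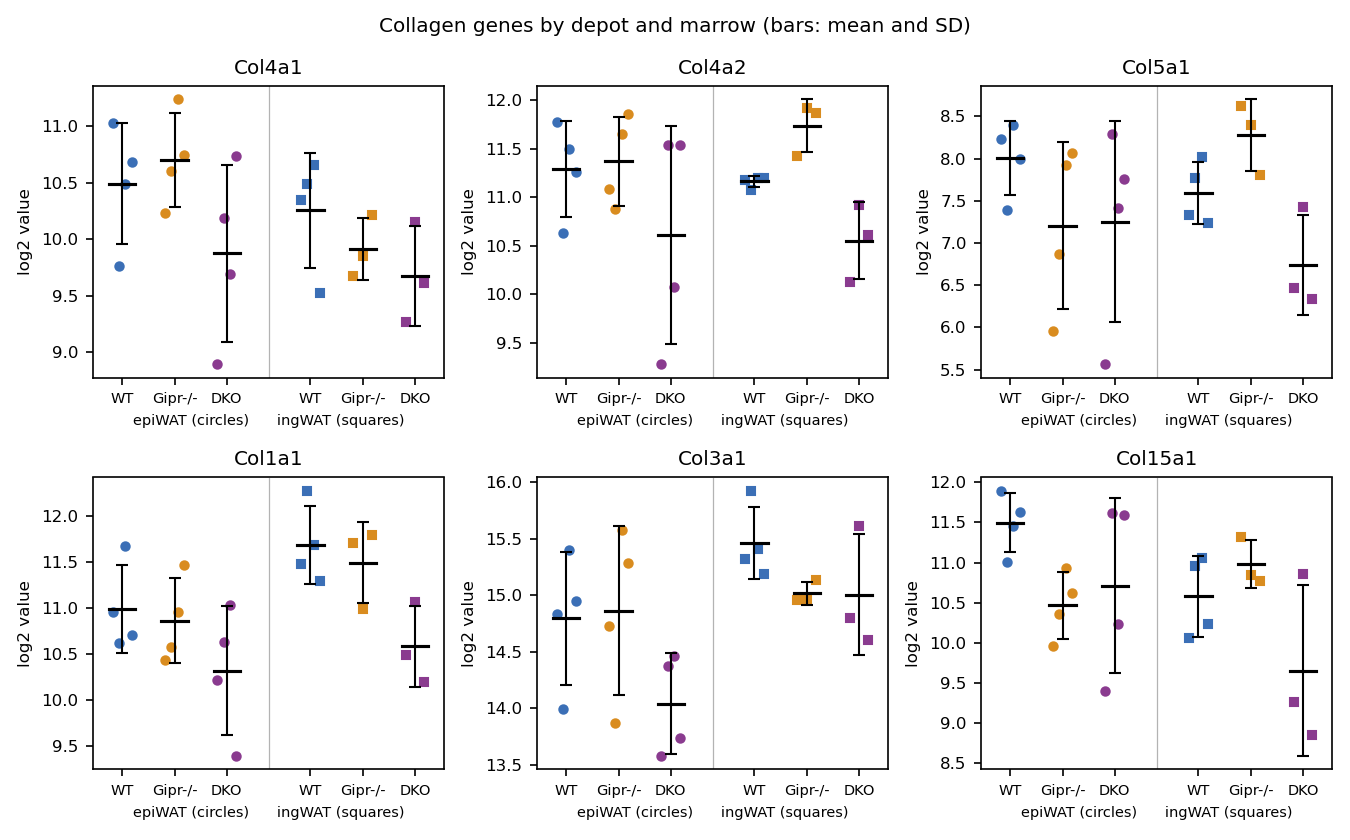
Log2 values of 6 chains (Col4a1, Col4a2, Col5a1, Col1a1, Col3a1 and Col15a1) in each array, with the mean and SD of each group (circles epiWAT, squares ingWAT). In ingWAT, Col4a2 averages 11.74 with Gipr-/- and 10.55 with double-knockout marrow, and Col5a1 8.28 and 6.74.

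Some chains stood higher with double-knockout marrow in ingWAT. Besides Col6a4, the arrays of Col8a2 (8.52, 8.81 and 8.73 against 8.02, 8.32 and 7.97), Col9a2 (6.18, 6.19 and 5.73 against 5.49, 5.05 and 5.32) and Col22a1 did not overlap those with Gipr-/- marrow. Col8a2 differed by 0.58 (adjusted p = 0.337), Col9a2 by 0.74 (adjusted p = 0.302) and Col22a1, a FACIT chain of muscle and tendon junctions, by 0.42 (adjusted p = 0.672), so none passed. By class, 3 of 10 fibrillar chains were higher (median -0.40), 3 of 6 basement membrane chains (median -0.04) and 17 of 23 other chains (median 0.15), beside a median of -0.03 over all genes. Under quantile normalization 4 of 10 fibrillar chains were higher, Col3a1 among them, and with centred arrays 16 of 23 other chains.

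The remaining ingWAT comparisons gave no collagen call. Between Gipr-/- and WT marrow 0 of 39 passed in limma, with 2 at an unadjusted p under 0.05, against 0.234% and 15% of all genes, and 2 did not overlap (Col4a2 higher and Col3a1 lower), against 15.4%. The smallest p-values belonged to Col4a2 and to Col14a1, which stood at 6.41 ± 0.45 (n = 3) against 5.62 ± 0.57 (n = 4), a difference of 0.79 (SE 0.35, adjusted p = 0.319). Between double-knockout and WT marrow 0 of 39 passed, with 7 at an unadjusted p under 0.05, against 0% and 13.5% of all genes. The 3 that did not overlap, against 11% of all genes, were Col1a1 and Col4a2 (lower) and Col14a1 (higher by 0.83, adjusted p = 0.339).

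EpiWAT gave no collagen call between any marrows. Between Gipr-/- and WT marrow 0 of 36 tested collagen genes passed, with 2 at an unadjusted p under 0.05, against 0% and 7.25% of all genes, and the groups of 4 did not overlap for 2 genes, against 5.04%. The 2 were Col6a5, given above, and Col15a1. Col15a1 measured 11.90, 11.01, 11.46 and 11.64 with WT marrow and 9.95, 10.36, 10.94 and 10.61 with Gipr-/- marrow, every array lower, a difference of -1.03 (SE 0.46, adjusted p = 0.674). The lowest of these, array 1, is the Gipr-/- array with the high germ cell score, and it was also the lowest of its group in Col5a1 (5.96); the part of that tissue was not tested. With double-knockout marrow it was spread over 9.40, 11.62, 10.23 and 11.59. The change of this difference between depots was 1.44 with an adjusted p of 0.620.

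Between double-knockout and Gipr-/- marrow in epiWAT, 0 of 36 passed and 0 reached an unadjusted p under 0.05, against 0% and 10.7% of all genes, and 0 did not overlap, against 6.05%. The medians were -0.24 for fibrillar and -0.21 for basement membrane chains, beside -0.00 for all genes. Leaving out 1 array gave -0.30 to 0.012 for fibrillar chains, turned in sign without double-knockout array 1, and -0.49 to -0.068 for basement membrane chains, the latter without double-knockout array 4. Between double-knockout and WT marrow 0 of 36 passed, with 1 (Col6a5) at an unadjusted p under 0.05, against 0% and 3.06% of all genes, and 0 did not overlap, against 2.32%. There 7 of 9 fibrillar chains were lower (median -0.63, range -0.80 to 0.55) and 5 of 6 basement membrane chains (median -0.25), beside -0.02 for all genes. Leaving out 1 array gave -0.79 to -0.27 for the former, the latter without double-knockout array 1, and -0.43 to 0.027 for basement membrane chains, which turned in sign without WT array 3. Double-knockout epiWAT array 1 was the lowest of its group in Col4a1 (8.89), Col4a2 (9.28), Col5a1 (5.56), Col6a1 (10.66), Col6a2 (10.24) and Col15a1 (9.40). It was also the array with the high epididymis score, and had an endothelial score of -1.77. The part of that tissue mixture in the low values was not tested.

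The other chains are given by the range of their group means. Col18a1, the source of the fragment endostatin, ran from 10.52 in double-knockout ingWAT to 11.69 in WT epiWAT, with depot differences of -0.48, -0.69 and -0.78 for WT, Gipr-/- and double-knockout marrow, none called. Col16a1, a FACIT chain, ran from 8.21 to 8.99, and Col5a3, the third type V chain, from 6.09 to 6.86. Transmembrane and nerve-associated chains covered similar spans, Col13a1 5.93 to 6.92, Col23a1 5.79 to 6.75, Col25a1 4.83 to 5.88 and Col28a1 6.50 to 7.25. Of the chains best known from cartilage, Col9a1 ran from 4.88 to 5.55, Col9a3 from 5.62 to 6.10, Col11a1 from 4.43 to 4.99, Col11a2 from 6.62 to 7.40 and Col27a1 from 4.09 to 4.94. Col20a1 and Col22a1 ran from 6.02 to 6.50 and from 5.41 to 6.39, and Col8a1 from 5.09 to 5.73. Col10a1, Col24a1 and Col26a1 were too dim on average to be tested in any comparison, with group means between 3.15 and 4.51. Col2a1 and Col17a1 were left out in epiWAT, and Col19a1 in epiWAT and across depots.

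**Figure D4:**
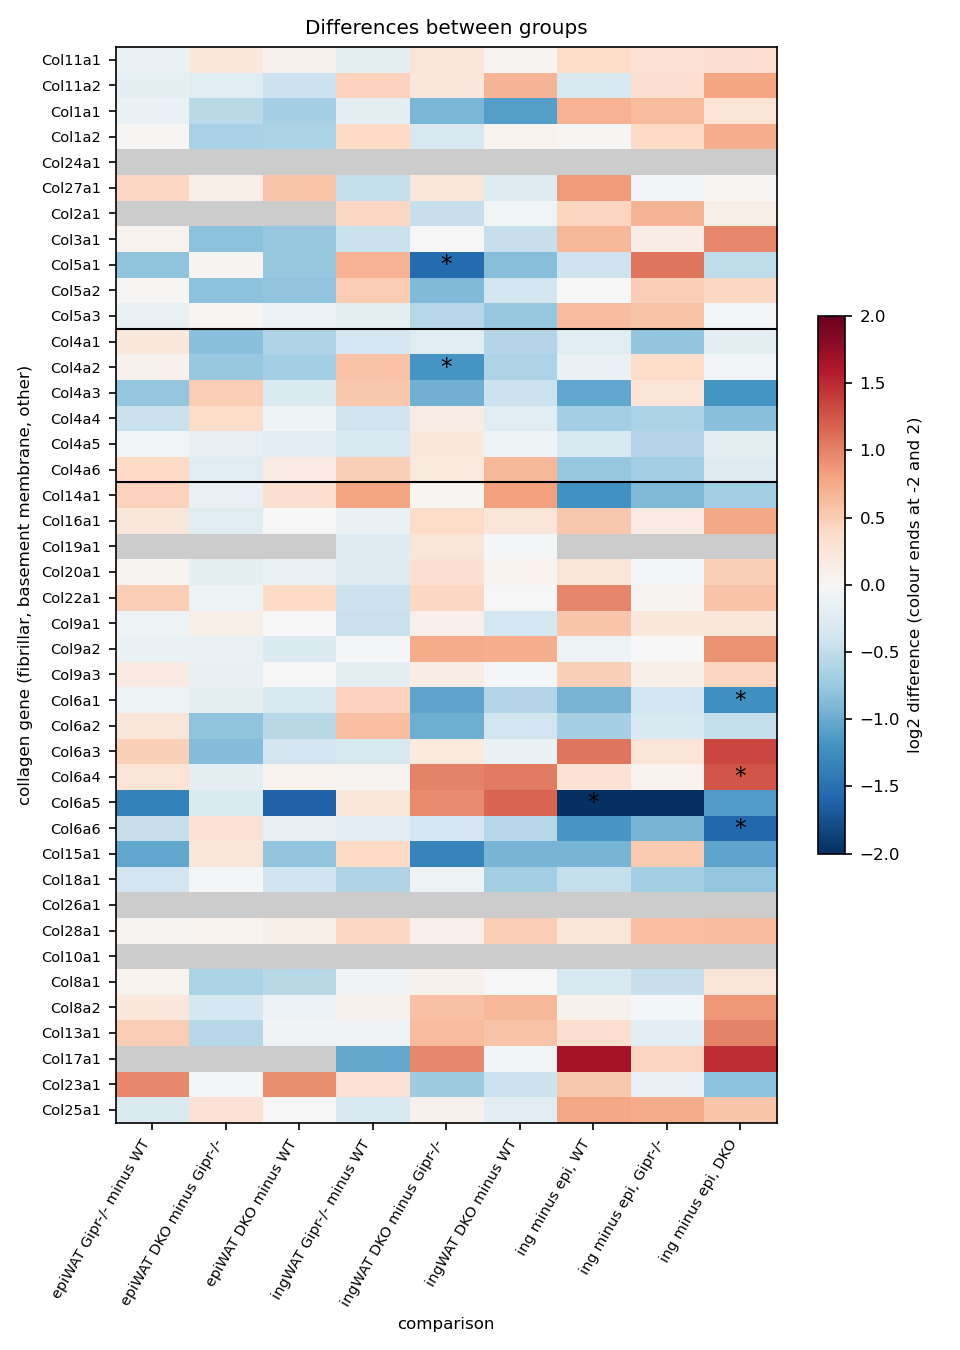
Heatmap of log2 differences for each collagen gene in the 6 marrow comparisons and the 3 depot comparisons (colour from -2 to 2, values beyond drawn at the end colours, grey for genes not tested, a star for an adjusted p under 0.05). Stars are on Col4a2 and Col5a1 in the ingWAT comparison of double-knockout with Gipr-/- marrow, and on Col6a5, Col6a1, Col6a4 and Col6a6 in the depot comparisons.

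The tests of whether a marrow difference itself depended on the depot gave no collagen call. For Gipr-/- against WT marrow 0 of 38 passed in limma, with 2 at an unadjusted p under 0.05 (Col15a1 and Col27a1), against 0% and 7.95% of all genes. For double-knockout against Gipr-/- marrow 0 passed, with 5 (Col6a4, Col8a2, Col9a2, Col13a1 and Col15a1), against 0.717% and 13.8%. For double-knockout against WT marrow 0 passed, with 5 (Col6a4, Col6a5, Col8a2, Col9a2 and Col11a2), against 0% and 8.54%. So the calls in ingWAT are not shown to be absent from epiWAT.

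Genes that modify, crosslink, bind or sense collagen included several that were lower with double-knockout than Gipr-/- marrow in ingWAT. Of 69 tested genes from 7 lists (chain modification, propeptide removal and crosslinking, fibril partners, basement membrane partners, receptors, breakdown and profibrotic signals), 10 passed, all lower (3.48% of all genes passed, 2.65% lower), and 55 had a negative difference, with a median of -0.49 beside -0.03 for all genes. The number that passed ranged from 4 without Gipr-/- array 1 or double-knockout array 1 to 19 without double-knockout array 2. The lists were chosen with earlier results of these data known, so these counts are no independent evidence about such genes. The calls were 2 of 16 for chain modification (median -0.35), 2 of 9 for propeptide removal and crosslinking (-1.15), 2 of 9 for fibril partners (-0.68), 2 of 7 for receptors (-0.48) and 2 of 9 for profibrotic signals (-0.31). Basement membrane partners (0 of 11, median -0.38) and breakdown genes (0 of 8, median -0.98) had none.

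Lox, the enzyme that crosslinks collagen and elastin, measured 13.11, 13.62 and 13.32 with Gipr-/- marrow, 11.72, 11.64 and 11.95 in double-knockout arrays and 12.25, 11.91, 12.38 and 12.24 with WT marrow. The Gipr-/- arrays were above all others, and the difference of double-knockout from Gipr-/- was -1.58 (adjusted p = 0.00646). Pcolce, which speeds the removal of the type I propeptide, was at 11.27, 10.90 and 11.80 against 9.52, 9.77 and 9.94 (difference -1.58, adjusted p = 0.0174). P3h2, a prolyl 3-hydroxylase that acts on type IV chains, was at 9.47, 9.56 and 9.57 against 7.54, 6.93 and 7.80 (difference -2.11, adjusted p = 0.0159). Plod1, a lysyl hydroxylase, fell by 1.16 (adjusted p = 0.0498), but passed in only 6 of 19 alternative settings, with a highest adjusted p of 0.245. It missed without any 1 of the 4 WT arrays (0.0687, 0.0716, 0.0662 and 0.0587), Gipr-/- array 2 (0.181) or 3 (0.131), or double-knockout array 1 (0.182) or 3 (0.151). Lox passed in 18 of 19, and Pcolce and P3h2 in 16 of 19 each. Pcolce missed without Gipr-/- array 1 (0.0647) or double-knockout array 1 (0.0870), and P3h2 without Gipr-/- array 1 (0.0634) or 2 (0.0793) or double-knockout array 1 (0.0659). With all 22 arrays fitted together Lox (0.133) and Pcolce (0.0911) missed.

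Among receptors, Mrc2, the uptake receptor for collagen fragments, was at 12.16, 12.71 and 11.49 against 8.14, 9.29 and 9.66 (difference -3.09, adjusted p = 0.0128), and Ddr2, a collagen-binding kinase, fell by 1.23 (adjusted p = 0.0174). Thbs1, a matrix glycoprotein that activates TGF-beta, was at 14.87, 15.25 and 13.57 against 10.06, 9.20 and 10.54 (difference -4.63, adjusted p = 0.00529), with WT arrays in between at 11.20, 13.22, 11.37 and 12.11. Postn, periostin, a secreted fibril partner, fell by 1.91 (adjusted p = 0.0472), and passed in 8 of 19 settings. Ccn2, a connective tissue growth factor, was at 11.21, 12.02 and 12.33 with Gipr-/- marrow, 8.33, 9.56 and 8.67 with double-knockout marrow and 9.46, 9.25, 10.03 and 9.33 with WT marrow. It was 2.34 higher with Gipr-/- than WT marrow (adjusted p = 0.0307), fell by 3.0 on the log2 scale from Gipr-/- to double-knockout marrow (adjusted p = 0.00529), and the change of that last difference between depots passed (-2.82, adjusted p = 0.0282). Acta2, which is also a vessel smooth muscle marker, fell by 1.30 (adjusted p = 0.0355).

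Of these calls, Thbs1 and the Ccn2 difference of double-knockout from Gipr-/- marrow passed in all 19 settings, and Mrc2 and Ddr2 in 16 of 19. Mrc2 missed without Gipr-/- array 1 (0.0595) or 2 (0.0793) or double-knockout array 1 (0.0681), and Ddr2 without Gipr-/- array 1 (0.0789) or double-knockout array 1 (0.0833) or 3 (0.0520). Postn missed without WT arrays 1 to 3 (0.0689, 0.0609 and 0.0612), any of the Gipr-/- arrays (0.0647, 0.201 and 0.103) or double-knockout array 1 (0.175) or 3 (0.0979). Acta2 passed in 10 of 19 and missed without WT array 1 (0.0515) or 2 (0.0505), any of the Gipr-/- arrays (0.0663, 0.132 and 0.0906) or double-knockout array 3 (0.113). It also missed with all 22 arrays fitted together (0.416). The Ccn2 difference of Gipr-/- from WT passed in 10 of 19. It missed without WT arrays 1 to 3 (0.104, 0.0764 and 0.0858), any of the Gipr-/- arrays (0.0736, 0.209 and 0.0549) or double-knockout array 3 (0.0600). Its change between depots passed in 23 of 31 and missed without Gipr-/- ingWAT array 2 (0.0815) or 3 (0.0663), double-knockout ingWAT array 1 (0.0901) or 3 (0.0811), Gipr-/- epiWAT array 1 (0.0551) or 4 (0.0545), or double-knockout epiWAT array 2 (0.0582). That change missed by most with only the 4 groups compared (0.121).

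Marker scores of several cell types differed in the same comparison. The adipocyte score was 0.38, 0.25 and 0.30 in the Gipr-/- arrays, against -0.07, 0.02 and 0.06 in the double-knockout arrays, without overlap. All 4 macrophage markers had a negative difference, of which Mrc1 passed (-1.68, adjusted p = 0.0128), and the macrophage score was 0.08, -0.18 and -0.14 in the Gipr-/- arrays, against -1.41, -0.93 and -1.01 in the double-knockout arrays. All 6 endothelial markers and all 5 progenitor and fibroblast markers had a negative difference, with 0 passing in either list, and the endothelial score ran from 0.21 to 0.77 with Gipr-/- marrow and from -0.11 to 0.25 with double-knockout marrow. The skeletal muscle score was -0.78, 0.62 and 2.72 in the Gipr-/- arrays, against 3.66, 7.07 and -0.79 in the double-knockout arrays. The part of cell composition in the collagen differences was not tested.

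In the other marrow comparisons the calls were 1 of 69 between Gipr-/- and WT marrow in ingWAT (Ccn2, against 0.234% of all genes), 0 of 69 between double-knockout and WT marrow (against 0%) and 0 of 68 in each epiWAT comparison (against 0%). Between depots they were 2 of 68 with WT marrow, 1 with Gipr-/- marrow and 4 with double-knockout marrow, against 1.97%, 0.614% and 3.92% of all genes. Fmod, a small proteoglycan that binds collagen fibrils, was lower in ingWAT with WT marrow (-3.07, adjusted p = 0.0353), as was Timp2, an inhibitor of matrix proteases (-1.35, adjusted p = 0.0433). Timp1, a related inhibitor, was lower in ingWAT with Gipr-/- marrow (-2.26, adjusted p = 0.0226) and with double-knockout marrow (-2.19, adjusted p = 0.00686). Its double-knockout ingWAT values of 3.70, 3.87 and 4.34 lay below the filter level of 4.40, so the size of that difference is uncertain. With double-knockout marrow Mia3, which loads procollagen for export (-0.92, adjusted p = 0.0388), Tgfb2, a growth factor (-1.83, adjusted p = 0.0396), and Ccn2 (-1.47, adjusted p = 0.0462) were also lower. Most of these depot calls ended in some settings. Ccn2 passed in 10 of 31 (highest adjusted p 0.283), Timp2 in 15 of 31 (0.129, without WT epiWAT array 3), Mia3 in 22 of 31 (0.262) and Tgfb2 in 22 of 31 (0.193). Fmod passed in 23 of 31 and missed without any 1 of the 8 WT arrays (at most 0.0947), and Timp1 in 23 of 30 with Gipr-/- and 29 of 30 with double-knockout marrow. Mia3 missed without double-knockout ingWAT array 1 (0.155) or 2 (0.132) or epiWAT array 1 (0.0791), 3 (0.0945) or 4 (0.0566). Tgfb2 missed without any of the double-knockout ingWAT arrays (0.180, 0.0525 and 0.0765), double-knockout epiWAT array 1 (0.104) or 3 (0.0744), or Gipr-/- ingWAT array 2 (0.0503). Timp1 with Gipr-/- marrow missed without any of its ingWAT arrays (0.0557, 0.0548 and 0.128) or epiWAT array 1 (0.0549), 2 (0.0598) or 4 (0.0552). Ccn2 and Timp2 missed without many single arrays of several groups, for Ccn2 with the highest of these without double-knockout ingWAT array 1 (0.200). Markers of mesothelium, the layer that covers the epididymal depot, had scores of -0.03 to 2.03 in epiWAT and -1.88 to -1.40 in ingWAT, and the part of that layer in the depot differences was not tested.

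Several pairs of chains that share a trimer or a fibril rose and fell together from array to array. Only partner pairs were correlated. Whether collagen chains that are not partners vary together as closely was not tested, so the relations below are not shown to be particular to partners. With each group's mean removed, Col6a1 and Col6a2 had a Pearson r of 0.82 and a Spearman rho of 0.81 over 22 arrays (permutation p = 1e-05, the smallest the permutations can give, adjusted p = 4e-05 over 8 pairs). Without the 2 arrays farthest from the median of Col6a1, r was 0.73. Col4a1 and Col4a2 had an r of 0.79 and a rho of 0.76 (permutation p = 1e-05, adjusted p = 4e-05), and 0.66 without the 2 farthest arrays. Within the depots r was 0.86 in epiWAT and 0.76 in ingWAT for the type VI pair (adjusted p = 0.00128 and 0.0312, by permutation). For the type IV pair it was 0.88 in epiWAT (permutation, adjusted p = 0.00104) and 0.52 in ingWAT (permutation, adjusted p = 0.194), so it was not detectable over the 10 ingWAT arrays alone. Double-knockout epiWAT array 1 lay lowest relative to its group in all 4 of these genes, and without it r was 0.76 for type VI and 0.73 for type IV. For all pairs, the permutations shuffled the deviations across groups and made no allowance for the group means removed. The permutation p-values therefore tend to be too small, and those near the threshold are uncertain.

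The fibrillar partners had looser relations. Col1a1 and Col3a1, which share fibrils, had an r of 0.72 (rho 0.76, permutation p = 0.00017, adjusted p = 0.000453), Col1a1 and Col1a2 0.66 (rho 0.65, permutation p = 0.00081, adjusted p = 0.00162), and Col5a1 and Col5a2 0.63 (rho 0.68, permutation p = 0.00171, adjusted p = 0.00274). Leaving out the 2 farthest arrays gave 0.73, 0.76 and 0.63. Within epiWAT these 3 pairs had an r of 0.68, 0.57 and 0.63, and within ingWAT of 0.85, 0.83 and 0.67. Of those, Col1a1 with Col1a2 missed the threshold in epiWAT (permutation, adjusted p = 0.0595) and Col5a1 with Col5a2 in ingWAT (permutation, adjusted p = 0.0758).

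Not every pair showed the relation. Col6a1 and Col6a3 had an r of 0.61 (rho 0.58, permutation p = 0.00257, adjusted p = 0.00343), of 0.51 without the 2 farthest arrays, of 0.76 within epiWAT and of 0.22 within ingWAT (permutation, adjusted p = 0.720). Col4a5 and Col4a6, a head-to-head type IV pair, had an r of 0.42 (rho 0.37, permutation p = 0.0519, adjusted p = 0.0593), and of 0.32 without the 2 farthest arrays. Within epiWAT its r was 0.70 (permutation, adjusted p = 0.0218) with a rho of 0.55 (permutation, adjusted p = 0.0755), and within ingWAT r was 0.076 (permutation, adjusted p = 0.836). Col8a1 and Col8a2, which can form a joint network, had an r of -0.11 (rho -0.18, permutation p = 0.627), and 0.01 without the 2 farthest arrays. All pairs were measured on the same arrays, so array-wide shifts such as RNA yield or cell makeup are shared by every point.

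**Figure D5:**
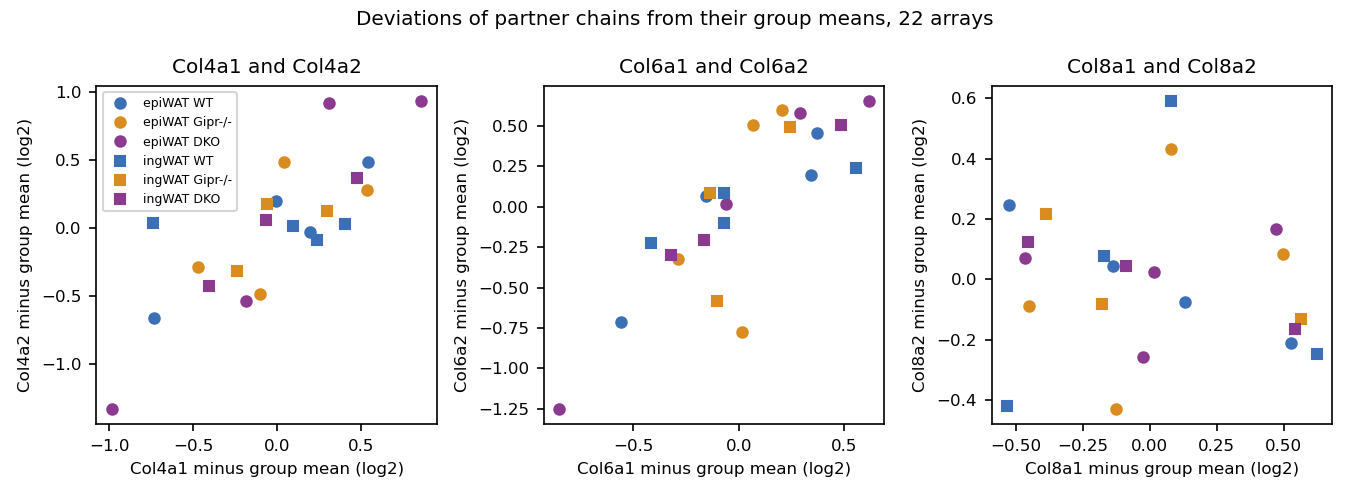
Deviation of each array from its group mean (log2) for 3 pairs of partner chains, Col4a1 with Col4a2, Col6a1 with Col6a2, and Col8a1 with Col8a2 (circles epiWAT, squares ingWAT). The first 2 pairs rise together over the 22 arrays, with r of 0.79 and 0.82, and the third does not, with r of -0.11.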

How the data were processed

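The deposited table holds 1 value per array feature for 22 arrays. The authors made these values from the scanned arrays before deposit, and they were taken as log2 from their range. How they corrected background and normalized, and the base of the log, are not given in the sources used here. Partek 6.6 is named, per the submitters' processing notes, without its role. Of 21793 features, 19341 have 1 gene symbol in the platform annotation and 2452 have none; 4 second features of a gene were left out. Per depot, the 25% of genes with the lowest mean were left out. Differences were fitted with limma 3.58.1 (R 4.3.3, lmFit and eBayes with trend, two-sided), with Benjamini-Hochberg adjustment over all genes tested and a threshold of 0.05. Each depot was fitted apart, and depot comparisons used all 22 arrays in 6 groups. The procedure was also run on simulated data with independent values, which lack the tissue mixtures of these arrays. That run is not used as support here. Groups came from the labels, and array numbers are names only. The labels also carry a numbered code per sample, whose meaning is not given. In ingWAT, the codes of WT array 4 and Gipr-/- arrays 1 and 2 lie apart from those of the other arrays. Whether this marks a separate handling is not known.

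Of the 42 collagen genes, 36 were tested in epiWAT, 39 in ingWAT and 38 across depots. A gene that passes the filter through 1 high group can differ for that reason. Partner chains were correlated with 100000 permutations, which shuffled deviations from the group means across groups. Described in full were the members past the threshold, otherwise the 3 with the smallest p, and 12 core chains. The members and lists were chosen with earlier results of these data known. The alternatives changed scaling, filter, trend, array weights, the arrays fitted and the class of Col15a1 and Col18a1, and left out each array. The number of arrays limits the precision.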

Additional observations from a re-analysis of the deposited data

Results flagged for a closer look

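Of 180 sets of 4 arrays examined for a single array far from the rest, 7 had one. Chance alone sets such an array apart in about 1 in 20 groups, so 7 is not more than that rate gives. In epiWAT with WT marrow, array 2 stood low in Col6a3 (9.70, next 10.90) and Col18a1 (10.90, next 11.90), and in the level of the other collagens (-0.141, next 0.0628). In epiWAT with double-knockout marrow, array 1 stood high in Col23a1 (8.80, next 6.13) and low in the level of the other collagens (-0.266, next -0.0406), and array 2 stood high in Col14a1 (7.70, next 7.02). In epiWAT with Gipr-/- marrow, array 4 stood high in Col28a1 (6.80, next 6.48), a collagen known from peripheral nerve. Double-knockout epiWAT array 1 is the array with the high epididymis and low adipocyte scores, and the part of those in its Col23a1 value was not tested.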

How the results depend on the processing

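The call of Col6a5 between depots with WT marrow held in every setting that tested it. Leaving out the lowest 50% of genes removed Col6a5 from the test, so 0 collagen genes passed there. The same filter moved class medians because fewer chains were left. In epiWAT they became 0.21 (Gipr-/- against WT, other), -0.60 and -0.76 (double-knockout against Gipr-/-, fibrillar and basement membrane), and -0.62 and -0.30 (double-knockout against WT, basement membrane and other). In ingWAT they became 0.40 (Gipr-/- against WT, fibrillar), and for basement membrane -0.71 (double-knockout against Gipr-/-) and -0.60 (against WT). Between depots they became 0.024, -0.24 and -0.20 (WT marrow, fibrillar, basement membrane and other), 0.27 (Gipr-/-, basement membrane) and -0.59 (double-knockout, other). For the change between depots they became 0.49 and 0.10 (Gipr-/- against WT, basement membrane and other), -0.42 and -0.025 (double-knockout against Gipr-/-, the same classes) and 0.30 (double-knockout against WT, fibrillar).

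Between double-knockout and Gipr-/- marrow in ingWAT, 0 collagen genes passed under quantile normalization or with all 22 arrays in 1 fit, 1 with no filter or without the trend, and 9 with array weights. Over all genes those settings called 378, 467, 429, 352 and 1797, against 505. Array weights also gave 2 calls for double-knockout against WT in ingWAT, 4, 1 and 5 between depots with WT, Gipr-/- and double-knockout marrow, and 2 for the change between depots of double-knockout against Gipr-/-. They moved the double-knockout depot medians to -0.49 (basement membrane) and 0.23 (other), and those for the change between depots of double-knockout against WT to -0.39 (fibrillar) and -0.12 (other). With no filter the latter was -0.050, and 0.18 for double-knockout against Gipr-/-. Quantile normalization gave 1 depot call with Gipr-/- marrow. With double-knockout marrow the depot calls fell to 1 with centred arrays and 0 with only the 2 groups compared, and the basement membrane median was -0.52 with Col15a1 and Col18a1 counted in it. The 10 calls among collagen-handling genes in the ingWAT comparison of double-knockout with Gipr-/- marrow became 23 with array weights (1797 calls over all genes) and 6 with all 22 arrays in 1 fit (467). Centring moved the fibrillar level of Gipr-/- ingWAT to 0.43. The cause of these moves was not tested.

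Within 1 depot, r was 0.57 for Col1a1 with Col1a2 (epiWAT), 0.67 for Col5a1 with Col5a2, 0.52 for Col4a1 with Col4a2 and 0.22 for Col6a1 with Col6a3 (ingWAT), all past the threshold over 22 arrays and not there, over fewer arrays. For Col4a5 with Col4a6, r was 0.70 in epiWAT and 0.45 without double-knockout epiWAT array 1 (permutation, adjusted p = 0.0458), a setting chosen after seeing the data.

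Leaving out each array in turn gave 0 to 5 calls for double-knockout against Gipr-/- and 0 to 2 against WT in ingWAT, and 1 to 2, 0 to 1 and 0 to 5 between depots with WT, Gipr-/- and double-knockout marrow. Class medians ran from -0.79 to -0.27 and -0.25 to -0.014 (epiWAT double-knockout against WT, fibrillar and other), -0.22 to 0.14 (ingWAT Gipr-/- against WT, other), -0.76 to -0.14 and -0.27 to 0.071 (ingWAT double-knockout against Gipr-/-, fibrillar and basement membrane), and -0.26 to 0.12 (ingWAT double-knockout against WT, other). Between depots they ran from 0.046 to 0.34 (WT, other), and -0.51 to -0.10 and 0.23 to 0.55 (double-knockout, basement membrane and other). For the change between depots they ran from -0.21 to 0.31 (Gipr-/- against WT, basement membrane), -0.36 to 0.14 and 0.16 to 0.63 (double-knockout against Gipr-/-, fibrillar and other), and -0.46 to 0.19 and -0.12 to 0.36 (double-knockout against WT, fibrillar and other).

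No called gene changed sign. Of 8330 pairs of a named gene and an alternative, 129 changed sign where neither value passed. No paired analysis was possible because the labels give no replicate number that groups share.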
